A study of Mus musculus with 6 samples.

Results

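Messenger RNA of 10 genes that respond to stretch and overload of striated muscle was examined in mouse hearts with and without αMHC-Cre. The genes encode muscle ankyrin repeat proteins (Ankrd1, Ankrd2, Ankrd23), LIM domain proteins (Csrp3, Fhl1, Fhl2), Xin repeat proteins (Xirp1, Xirp2), the calcineurin regulator Rcan1 and the cytokine receptor Tnfrsf12a. Members were all probe sets annotated to one of these symbols alone, and 9 of the 10 genes were found, among 18193 genes named on the array, through 13 of its 45101 probe sets. No probe set was annotated to Xirp2, which was not analysed here. The apex of 6 hearts was profiled, 1 Affymetrix array per heart, in male mice aged 6 to 7 weeks. All animals carried a floxed and a deleted (delta) allele of Fog2, the gene now named Zfpm2, whose protein binds GATA factors and modulates their activity. An αMHC-Cre transgene, driven by the promoter of the α-myosin heavy chain gene and so active in cardiomyocytes, was carried by 3 of the animals, and the other 3 lacked Cre. These hearts without Cre, the controls, were therefore not wild type. The design has no animals with Cre but without the floxed allele, so an effect of Cre itself and one of Fog2 loss cannot be told apart.

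Muscle ankyrin repeat proteins sit on the elastic titin filament of the sarcomere and also enter the nucleus, and Ankrd1 is a widely used marker of haemodynamic load in the ventricle. Csrp3 (muscle LIM protein) is anchored at the Z-disc, Fhl1 and Fhl2 bind the titin spring, and Xirp1 (Xin) lies at the intercalated disc. Rcan1 is a transcriptional target of calcineurin and NFAT that binds calcineurin in turn, and Tnfrsf12a (Fn14) is the receptor for the cytokine TWEAK.

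The promoters of the members whose level differed most are shown as a description, and no test below uses them. They are RefSeq sequences of build GRCm38.p6, from 250 bases before to 50 after a transcription start, read 5′ to 3′ on the gene's strand. Capitals mark matches on either strand to the TEAD motif M-CAT (GGAATG or CATTCC), the GATA motif (GATAA or TTATC) and the NFAT core (GGAAA or TTTCC).
Ankrd1, chr19:36119795-36120094, minus strand: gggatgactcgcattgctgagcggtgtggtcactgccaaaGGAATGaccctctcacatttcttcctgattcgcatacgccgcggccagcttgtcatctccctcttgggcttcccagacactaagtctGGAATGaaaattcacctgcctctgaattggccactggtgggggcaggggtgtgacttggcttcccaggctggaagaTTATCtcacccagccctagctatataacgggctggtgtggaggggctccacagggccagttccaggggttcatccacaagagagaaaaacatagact
Ankrd23, upstream start, chr1:36536507-36536806, minus strand: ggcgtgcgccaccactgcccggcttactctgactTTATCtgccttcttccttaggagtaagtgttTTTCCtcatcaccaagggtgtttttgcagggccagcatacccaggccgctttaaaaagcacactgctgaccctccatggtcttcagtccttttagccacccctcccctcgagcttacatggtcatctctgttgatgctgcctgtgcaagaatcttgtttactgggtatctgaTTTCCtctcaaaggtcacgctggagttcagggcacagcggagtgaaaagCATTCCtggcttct
Ankrd23, downstream start, chr1:36535690-36535989, minus strand: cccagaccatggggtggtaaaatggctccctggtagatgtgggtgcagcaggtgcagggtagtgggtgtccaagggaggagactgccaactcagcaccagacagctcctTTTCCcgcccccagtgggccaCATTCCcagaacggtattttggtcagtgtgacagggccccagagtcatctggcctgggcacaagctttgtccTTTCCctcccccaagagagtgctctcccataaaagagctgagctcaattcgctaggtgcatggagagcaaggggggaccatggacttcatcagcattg
Tnfrsf12a, chr17:23677400-23677699, minus strand: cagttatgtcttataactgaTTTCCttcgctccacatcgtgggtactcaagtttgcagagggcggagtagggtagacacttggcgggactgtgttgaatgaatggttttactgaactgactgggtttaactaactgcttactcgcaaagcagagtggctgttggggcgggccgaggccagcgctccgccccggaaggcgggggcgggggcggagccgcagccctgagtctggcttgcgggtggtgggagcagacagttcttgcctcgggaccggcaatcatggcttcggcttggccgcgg
Rcan1, downstream start, chr16:92400029-92400328, minus strand: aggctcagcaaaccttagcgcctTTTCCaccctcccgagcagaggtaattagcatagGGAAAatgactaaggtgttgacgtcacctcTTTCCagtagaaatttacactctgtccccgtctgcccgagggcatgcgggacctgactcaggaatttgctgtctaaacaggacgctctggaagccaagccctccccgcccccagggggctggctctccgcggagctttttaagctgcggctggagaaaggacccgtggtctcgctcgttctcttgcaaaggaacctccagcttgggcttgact

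The Ankrd1 window held M-CAT matches that begin 210 and 123 bases before the start and a GATA match 47 bases before it. Both Ankrd23 windows held 1 M-CAT match each, and the downstream Rcan1 window held 3 NFAT core matches. The upstream Rcan1 window, not printed here, held no M-CAT, GATA or NFAT core match. Of 32851 promoters of this length, 14.7% held an M-CAT match, 25.4% a GATA match and 61.3% an NFAT core match. RefSeq gave 14 windows for 9 of the 10 genes (none for Xirp1), and the remaining 11 windows held no M-CAT match. A GATA match was also present in the upstream windows of Fhl1 and Fhl2, which did not pass the test below. A match is a description of letters, and no source used here gives the start that each probe set reports on.

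Values below are log2 signals. Each belongs to a probe set, the probes designed together against a transcript, and a difference is the mean with Cre minus the mean without Cre, so that 1 is a doubling. Levels of different probe sets cannot be compared. Array medians lay between 5.71 and 5.81, and the highest value on each array between 13.97 and 14.00. Pairs of arrays correlated at 0.980 to 0.987 within a group and 0.964 to 0.973 between groups across tested probe sets. The 3′ minus 5′ signal of Actb, which can reflect RNA quality, was 0.30 to 0.41 without Cre and 0.25 to 0.29 with Cre, and that of Gapdh was -0.14 to -0.08 and -0.07 to -0.04. These separated the groups in opposite directions, and their part in any result was not tested. The probe sets of the targeted gene, Zfpm2, went both ways, one from 6.34, 6.40 and 6.65 to 5.46, 5.61 and 5.65, and the other from 8.86, 8.83 and 8.95 to 10.71, 10.48 and 10.50. No source used here gives the part of the gene that each measures, so neither checks the deletion on its own. Markers of cardiomyocytes were bright in all hearts, and none of 12 passed the test (median difference 0.00). Several of them, such as Myh6, Tnnt2 and Myl2, read near the array maxima, where differences may be compressed.

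Of the 8 members bright enough to be tested, Tnfrsf12a, Ankrd23 and Rcan1 rose with Cre and none fell (limma, adjusted p under 0.05), against 4.2% of all 13063 genes tested that rose and 2.04% that fell. Ankrd1 differed by more than Ankrd23 but did not pass, and 1 control heart lay far below the others. Csrp3, Fhl1, Fhl2 and Xirp1 did not pass. Without the filter on dim probe sets none of the 9 measured genes passed, against 0.611% of all probe sets. The median difference of the 8 genes was 0.35, and that of all genes tested -0.01. In 5 of the 9 measured genes (Ankrd1, Ankrd23, Csrp3, Tnfrsf12a and Rcan1) every heart with Cre lay above every heart without Cre, against 11.4% of all tested probe sets. In RNA of whole tissue, a change in the number of cells of a type and in the RNA per cell cannot be told apart.

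**Figure D1:**
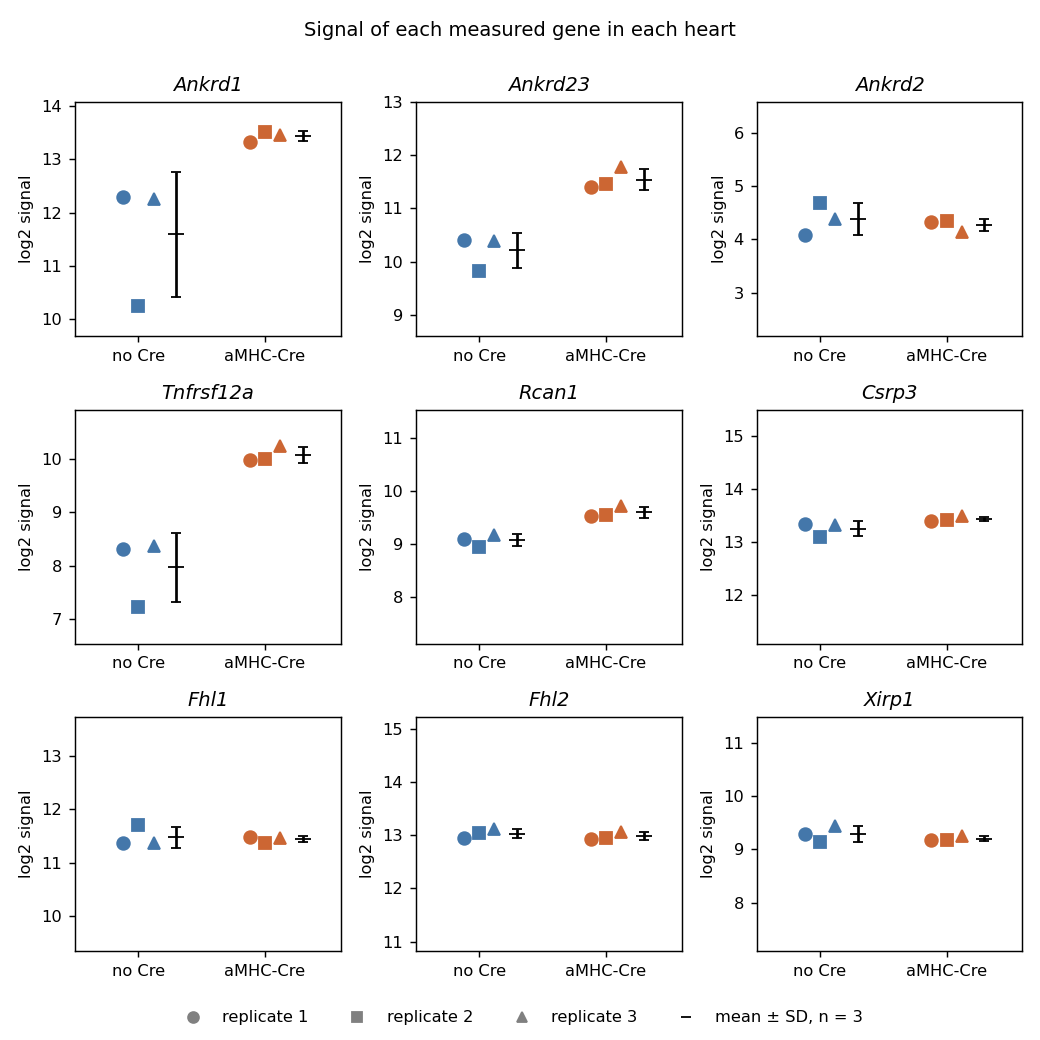
Log2 signal (y axis, spanning the same range in each panel) of the brightest probe set of each of the 9 measured genes in hearts without Cre (blue) and with αMHC-Cre (orange), with symbols for replicate numbers and the mean ± SD (n = 3) beside them. Ankrd1, Ankrd23, Tnfrsf12a and Rcan1 lie higher in all 3 hearts with Cre, and no_Cre 2 (blue square) lies lowest for each of them.

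Among the ankyrin repeat genes, Ankrd1 had signals of 12.29, 10.24 and 12.25 in controls and of 13.33, 13.52 and 13.46 in Cre hearts. The hearts with Cre were tightly grouped, and the gap between the groups was 1.04 even though the heart no_Cre 2 lay far below its own group. The difference was 1.84 ± 0.46 (SE), a 3.59-fold higher signal, with an adjusted p of 0.056 that misses the threshold. The second Ankrd1 probe set followed the first closely (r = 0.999 over the 6 hearts, a description) and differed by 1.69 ± 0.47 (adjusted p 0.079). Without no_Cre 2 the difference was smaller, 1.17 ± 0.13, but passed (adjusted p 0.0031). It also passed without no_Cre 1 (0.038) or no_Cre 3 (0.0496), but not without any one heart with Cre (0.11 to 0.19). Leaving out this control lowered both the difference and its SE. With Cre, Ankrd1 read near the array maxima, where differences may be compressed.

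Ankrd23, which encodes the diabetes-related ankyrin repeat protein of the same family, read 10.40, 9.83 and 10.39 in controls against 11.40, 11.45 and 11.77 in Cre hearts. The groups were separated by 1.00, and no_Cre 2 was again the lowest heart. The rise was 1.33 ± 0.18 (2.52-fold, adjusted p 0.0039), and it passed whichever heart was left out (1.14 to 1.43). Ankrd2, the family member best known from slow skeletal muscle, was too dim to be tested, at 4.08, 4.69 and 4.39 in controls against 4.33, 4.35 and 4.14 in Cre hearts. Its groups overlapped, and the fit without a filter gave a difference of -0.12 with a 95% interval from -0.57 to 0.34. The signal of Ankrd23 relative to Ankrd2 within each heart was 5.82 ± 0.61 (SD, n = 3) in controls against 7.27 ± 0.32 in Cre hearts. In a two-sided exact permutation test that difference of 1.45 had p = 0.1, the smallest that 3 hearts against 3 allow (0.15 after Benjamini-Hochberg adjustment over 6 such gene pairs). Ankrd2 was too dim to be tested, so this comparison mainly repeats the rise of Ankrd23 and does not show the genes moving apart. The signal of Ankrd1 relative to Ankrd23 was 1.39 ± 0.85 and 1.90 ± 0.19 (exact permutation p = 0.4, adjusted 0.48).

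Tnfrsf12a had the largest difference of the members. This receptor of TWEAK was measured by a pair of probe sets, the brighter of which read 8.31, 7.22 and 8.37 in controls against 9.982, 9.998 and 10.249 in Cre hearts. All hearts with Cre were at least 1.61 above the highest heart without, and no_Cre 2 was again the lowest heart. The rise was 2.11 ± 0.28 (4.32-fold, adjusted p 0.0031), and the dimmer probe set rose by 2.19 ± 0.32 (adjusted p 0.0056). It passed whichever heart was left out, and without no_Cre 2 it was 1.74.

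Rcan1 showed a smaller shift. Its brighter probe set read 9.10, 8.95 and 9.17 in controls against 9.53, 9.55 and 9.71 in Cre hearts, with a gap of 0.36 between the groups. The rise was 0.52 ± 0.12 (1.44-fold, adjusted p 0.039), but no fit that left out a heart called it (adjusted p 0.061 to 0.13). The dimmer probe set read 7.58, 7.29 and 7.72 against 7.90, 7.76 and 8.02, a difference of 0.36 ± 0.14 that did not pass (adjusted p 0.23). Rcan1 can be transcribed from alternative starts, of which the downstream one is the NFAT-responsive one, and no source used here says which transcripts these probe sets detect.

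**Figure D2:**
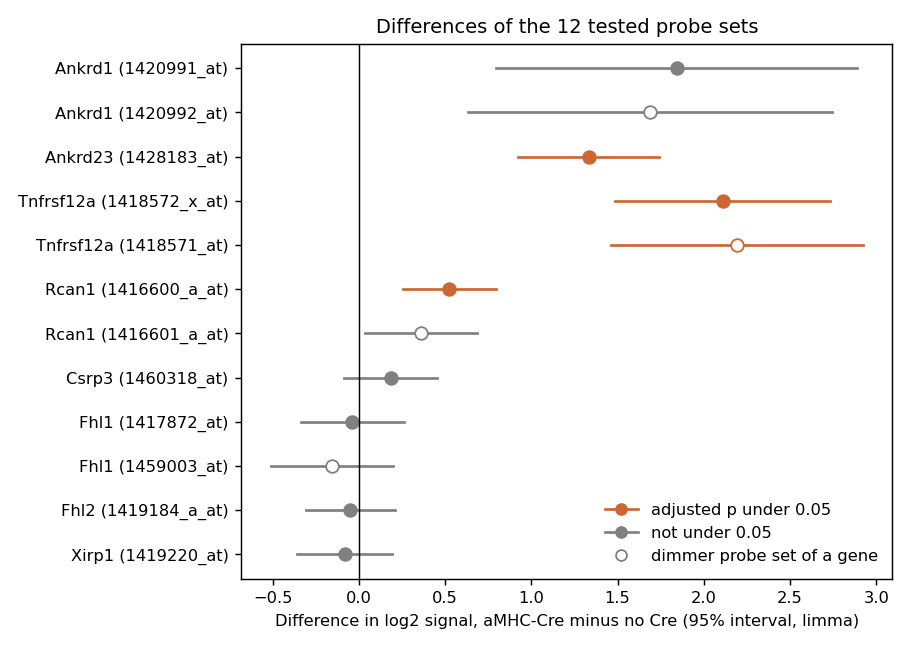
Difference in log2 signal, αMHC-Cre minus no Cre (x axis), for the 12 tested probe sets of 8 genes, with 95% intervals from limma and 3 hearts per group. Orange marks adjusted p under 0.05, and open circles mark the dimmer probe set of a gene. The intervals of Csrp3, Fhl1, Fhl2 and Xirp1 include 0, and those of both Ankrd1 probe sets are the widest.

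None of the LIM domain and Xin genes passed the test. Csrp3 read 13.33, 13.09 and 13.32 in controls against 13.40, 13.42 and 13.48 in Cre hearts. Its groups did not overlap, but the gap was only 0.07 and the difference of 0.18 ± 0.12 did not pass (adjusted p 0.49, 95% interval -0.08 to 0.45). Csrp3 lay near the array maxima in every heart, where differences may be compressed, so the interval holds for the signal and not necessarily for the transcript. Ankrd1 relative to Csrp3 within each heart went from -1.66 ± 1.04 (SD, n = 3) to 0.00 ± 0.09, a shift of 1.66 with an exact permutation p = 0.1 (adjusted 0.15).

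Fhl2, the four-and-a-half LIM protein enriched in heart, read 12.94, 13.03 and 13.11 in controls against 12.93, 12.95 and 13.06 in Cre hearts. The groups overlapped almost fully, with a difference of -0.05 (95% interval -0.31 to 0.21, adjusted p 0.88), again at readings near the array maxima. Fhl1, linked to skeletal and cardiac myopathy, read 11.36, 11.71 and 11.37 against 11.49, 11.38 and 11.46. Here no_Cre 2 was the highest heart, and the difference of -0.04 (95% interval -0.33 to 0.26, adjusted p 0.93) turned to 0.077 without it. The dimmer Fhl1 probe set differed by -0.16 (adjusted p 0.69). Fhl1 relative to Fhl2 within each heart shifted by only 0.01 (exact permutation p = 0.9, adjusted 0.9).

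Xirp1, a scaffold of the intercalated disc, read 9.29, 9.13 and 9.44 in controls and 9.18, 9.18 and 9.26 with Cre. The groups overlapped, and the difference was -0.08 (95% interval -0.36 to 0.19, adjusted p 0.80). Unlike Csrp3 and Fhl2, Xirp1 read well below the array maxima, so its interval is not limited by the upper end of the scale. The upper bounds of Csrp3, Fhl1, Fhl2 and Xirp1 (0.19 to 0.45) all lie below the lower bound of Ankrd23 (0.92). The lower bound of Rcan1 (0.25), however, lies below the upper bounds of Csrp3 (0.45) and Fhl1 (0.26). A test that misses the threshold does not show that a level was the same.

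The heart no_Cre 2 touched several of these results. Set against the mean of the other hearts without Cre, it differed by -2.03 for Ankrd1, -1.12 for Tnfrsf12a, -0.57 for Ankrd23, -0.23 for Csrp3 and for Xirp1, and -0.18 for Rcan1, but by 0.34 for Fhl1 and 0.01 for Fhl2. Across all tested probe sets it was lower by over 1 in 0.307% and by over 0.5 in 4.33%. These shares were not computed for the other controls. Its mean absolute deviation from the group mean over tested probe sets was 0.15, against 0.13 for no_Cre 1 and 0.14 for no_Cre 3. That group mean includes this heart, so these values do not decide whether its array stood apart. No label separates this heart from the other controls.

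**Figure D3:**
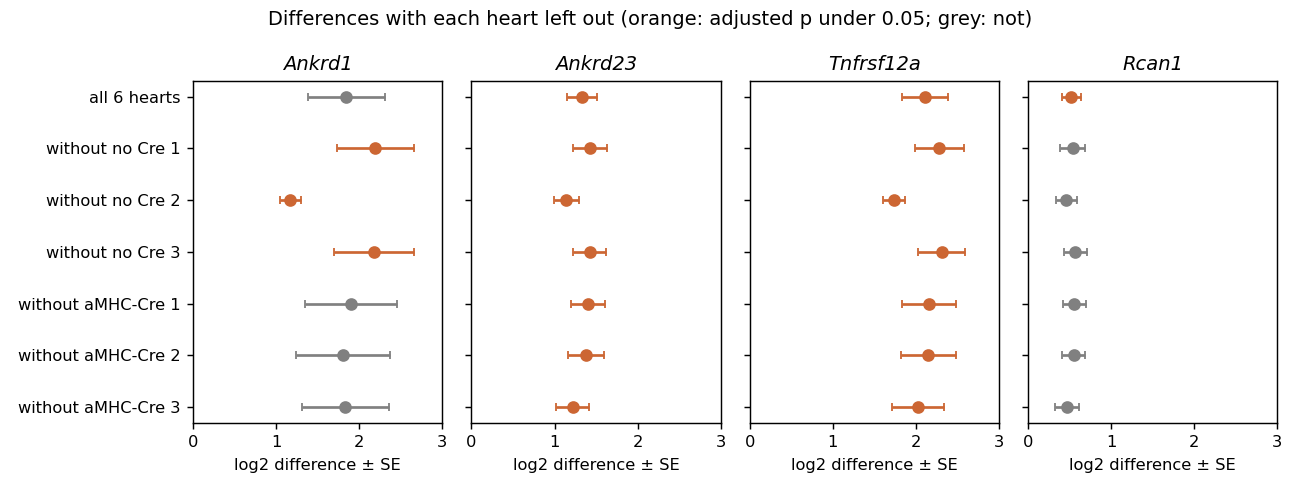
Difference in log2 signal ± SE (x axis, from 0) for Ankrd1, Ankrd23, Tnfrsf12a and Rcan1 in the limma fit of all 6 hearts and with each heart left out (rows). Orange marks adjusted p under 0.05: Ankrd23 and Tnfrsf12a pass in all rows, Ankrd1 only when a heart without Cre is left out, and Rcan1 only with all 6 hearts.

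Over the 6 hearts, the genes whose pattern was most like that of Ankrd1 were Mybpc3 (r = 0.993), Fkbp14 (0.993), Timm10 (0.991), Cenpt (0.988) and Ccdc189 (0.988), out of 12328 genes compared by their brightest probe set. Mybpc3 encodes cardiac myosin-binding protein C, and it read 12.81, 12.55 and 12.80 in controls against 13.00, 12.97 and 12.99 in Cre hearts. Each of these genes read lowest in no_Cre 2, and none of them passed the test (adjusted p 0.15 to 0.29). Among the members, Csrp3 (r = 0.979), Tnfrsf12a (0.954), Ankrd23 (0.926) and Rcan1 (0.897) followed Ankrd1, whereas Xirp1 (0.12), Fhl2 (-0.31), Fhl1 (-0.70) and Ankrd2 (-0.70) did not. The first of these ranked 26 (Csrp3), 97 (Tnfrsf12a), 236 (Ankrd23) and 422 (Rcan1) among the 12328 genes, so many other genes followed Ankrd1 as closely. All these values rest on the same 6 hearts in 2 groups and are descriptions without a test.

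Of 15 tested genes of related families or listed as partners of Xin, Csrp2 rose and Cmya5 fell, with a median difference of 0.00. Csrp2, a LIM protein of the same family as Csrp3 that is better known from smooth muscle, read 7.82, 7.70 and 7.94 in controls against 8.77, 8.98 and 9.30 in Cre hearts. It rose by 1.19 ± 0.15 (adjusted p 0.0029), and relative to Csrp3 it shifted by 1.01 (exact permutation p = 0.1, adjusted 0.15). Cmya5 (myospryn), a large muscle protein of the costamere, read 12.01, 12.19 and 11.99 against 11.19, 10.84 and 10.92 and fell by 1.08 ± 0.13 on the log2 scale (adjusted p 0.0023). Without the filter on dim probe sets neither call held (adjusted p 0.067 for Csrp2 and 0.051 for Cmya5). Pdlim5, a LIM protein of the Z-disc, differed by 0.05 in its brightest probe set (adjusted p 0.87), while dimmer ones rose by 0.62 (0.042) and 0.74 (0.046). Rcan2, the nearest relative of Rcan1, differed by -0.07 (95% interval -0.32 to 0.18), and Rcan1 relative to Rcan2 shifted by 0.59 (exact permutation p = 0.1, adjusted 0.15).

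Of 18 tested binding partners of the member proteins, only Myot rose and none fell, with a median of 0.06. Myot (myotilin), a Z-disc protein that binds filamin and α-actinin, read 10.99, 10.86 and 9.65 in controls against 12.27, 11.92 and 11.82 in Cre hearts. It rose by 1.51 ± 0.32 (adjusted p 0.027), a call lost without aMHC_Cre 1 (0.098) or aMHC_Cre 2 (0.099), with quantile normalization (0.0501), with trend and robust variance settings (0.16) and without the filter on dim probe sets (0.22). Titin itself (Ttn) differed by -0.01 (adjusted p 0.99), at readings near the array maxima. Flnc, the filamin that binds Xin, differed by 0.53 ± 0.14 without passing (adjusted p 0.067), while its dimmer probe set passed (0.57, adjusted p 0.035).

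In the calcineurin and NFAT list, upstream of Rcan1, none of 19 tested genes passed, with a median of -0.03. By brightest probe set, the lowest p-value belonged to Ppp3cc, a catalytic subunit of calcineurin, at -0.53 ± 0.15 (adjusted p 0.080). The next was that of Akap5, an anchoring protein of calcineurin, at 0.30 ± 0.11 (adjusted p 0.21). Dimmer probe sets of these genes differed by only 0.01 for Ppp3cc (adjusted p 0.98) and 0.06 for Akap5 (adjusted p 0.89). Of 12 tested genes of TWEAK and Fn14 signalling beside Tnfrsf12a, none passed by its brightest probe set (median 0.02). The probe sets of Fbxo32 (atrogin-1), a muscle ubiquitin ligase, differed in their calls. The brightest read 10.61, 10.79 and 10.78 in controls against 10.46, 10.05 and 9.86 in Cre hearts, a difference of -0.60 ± 0.16 that did not pass (adjusted p 0.072). Dimmer Fbxo32 probe sets fell by 1.11 ± 0.13 (adjusted p 0.0019) and by 0.98 ± 0.20 (adjusted p 0.022). Trim63 (MuRF1), another muscle ubiquitin ligase, differed by -0.35 ± 0.11 (adjusted p 0.12). The ligand gene Tnfsf12 was not analysed here.

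Of 21 tested genes of YAP/TEAD and SRF transcription, Ccn2 rose and none fell, with a median of 0.17. Ccn2 (connective tissue growth factor) read 10.14, 10.32 and 10.20 in controls and 11.23, 11.50 and 10.90 in Cre hearts, a rise of 0.99 ± 0.16 (adjusted p 0.0087) that was also lost without the filter (0.11). Ccn1, another common YAP target, differed by 0.26 (adjusted p 0.48), and Tead1, a factor that binds the M-CAT motif, by 0.14 (adjusted p 0.70). Vgll3, a cofactor of TEAD factors, differed by 0.56 ± 0.15 without passing (adjusted p 0.075), while a dimmer probe set rose by 0.84 (adjusted p 0.048).

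**Figure D4:**
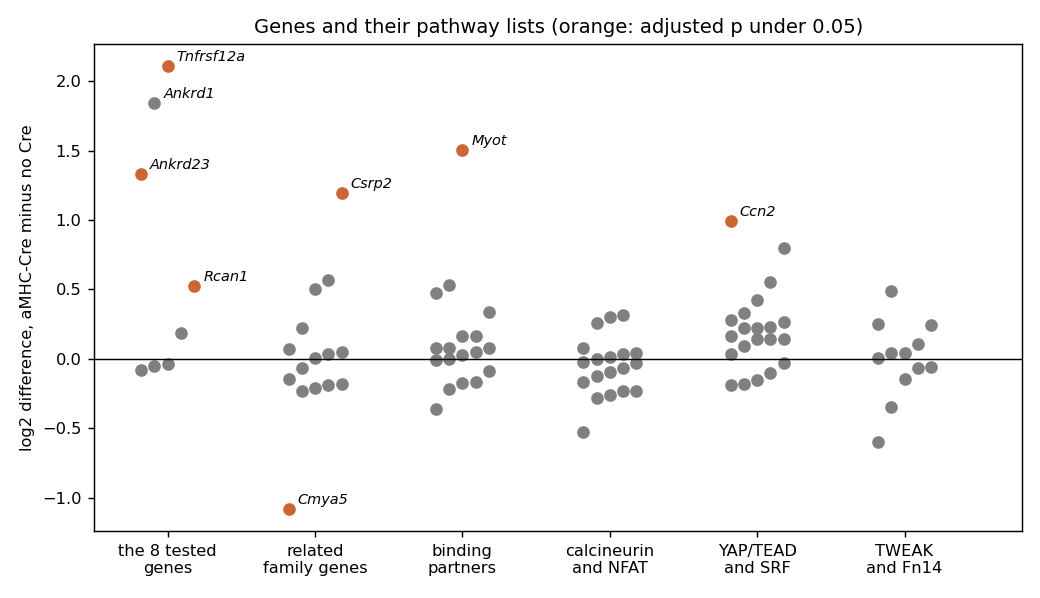
Difference in log2 signal, αMHC-Cre minus no Cre (y axis), of each tested gene (points, spread sideways for legibility) among the 8 tested members and the 5 lists of related genes. Orange marks adjusted p under 0.05. The members span -0.08 to 2.11, while the 19 calcineurin and NFAT genes and the 12 TWEAK and Fn14 genes show no orange point. Each gene is drawn at its brightest probe set, and the dimmer probe sets of Fbxo32, Flnc, Pdlim5 and Vgll3 that passed are not drawn.

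Markers of other cells moved with these results in part. Of 10 fibroblast markers 5 rose (median 0.54), and their summed unlogged signal was 18916 to 20889 without Cre and 26601 to 28799 with Cre. Of 14 fast skeletal muscle markers, a source of interest because several members are also skeletal muscle genes, 8 were too dim to be tested, among them Myh1, Myh4, Tnnt3, Actn3, Myod1 and Myog. Of the 6 tested only Casq1 rose, from 7.57, 6.29 and 7.85 to 9.85, 10.18 and 10.43, again with no_Cre 2 lowest, and the median was -0.18. Myh2 (-0.48), Tnni2 (-0.35) and Atp2a1 (-0.53) lay lower in every heart with Cre than in any without, but did not pass. Mybpc1 differed by -0.01 and Mylpf by 0.48, also without passing. The summed signal of that list, which includes Casq1, was 935 to 1121 without Cre and 1655 to 2236 with Cre. Of 7 atrial markers, Myl7 and Nppa rose, 3 did not pass and Sln and Bmp10 were too dim. The tested atrial genes had a median of -0.02. Tbx5 (-0.49) and Stard10 (-0.31) lay lower in every heart with Cre than in any without, and Myl4 differed by -0.02. The summed signal of this list, which includes Myl7 and Nppa, was 3568 to 5069 without Cre and 15824 to 16489 with Cre. Of 10 endothelial markers 1 rose, and none of 7 tested smooth muscle and pericyte markers or of 10 macrophage markers passed, and their summed signals overlapped between the groups. Without the filter on dim probe sets Myl7 (adjusted p 0.0083) and Nppa (0.030) still passed, and Casq1 (0.080), the fibroblast markers (0.051 and above) and the endothelial Vwf (0.098) did not. The part of these cell types in the rises of Tnfrsf12a, Ankrd23, Rcan1, Csrp2 and Ccn2 was not tested.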

How the data were processed

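The table deposited by the authors holds log2 signals made with PLIER, a summary over the probes of each probe set, per the submitters' processing notes. No source used here gives its settings, its background correction or any normalization between arrays. Base 2 was inferred from the deposited values, and each array held 749 to 902 values below 0.

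Of 45101 probe sets, 64 controls and the 40% of the rest with the lowest mean (18014, mean under 5.16) were left out, and 27023 were tested. No further normalization was applied. The group difference was fitted for every tested probe set in limma (version 3.58.1, under R 4.3.3) by lmFit and eBayes with no covariates. Its two-sided p-values had Benjamini-Hochberg adjustment over that whole table, with a threshold of 0.05. A gene was judged by its brightest probe set. Gene symbols came from the platform annotation, in which 34945 probe sets carry 1 symbol. The Entrez numbers of all 9 measured members matched RefSeq. Gene pairs were compared by exact permutation. The number of arrays limits the precision, and PLIER signals carry no counts.

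The members and lists (5 pathway and 7 marker lists) were chosen with earlier results of these data known. Named were all members, from each pathway list the genes that passed (at most 6) or the 2 with the lowest p, and the 5 genes most like Ankrd1. Of the genes outside this rule, Rcan2, Pdlim5, Ttn, Flnc, Ccn1, Tead1, Vgll3, Casq1 and the marker genes were named after their values were seen. Alternatives were other normalizations, filters, variance settings, offsets of 16 and 64 added to the unlogged signal, the replicate block, the mean over probe sets and leaving out each heart. The procedure was tested on simulated data.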

Additional observations from a re-analysis of the deposited data

How the results depend on the processing

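The count of changed probe sets, 1412 in all 6 hearts, was 275 without a filter, 909 with the replicate block and 600 to 1075 with 1 heart left out (600 without aMHC_Cre 2, 913 without no_Cre 1, 923 without aMHC_Cre 1 and 904 without aMHC_Cre 3). The probe set count rose to 1720 with an offset of 16, 1896 with an offset of 64 and 1939 with trend and robust variance settings. The count of changed members, 3 in all 6 hearts, was 0 of 9 without a filter in limma. There 0.611% of all probe sets passed, and 4 of the 9 members had an unadjusted p under 0.05. The member count was 2 to 3 with 1 heart left out. It was 4, with Ankrd1 added, when the lowest 60% were filtered out (adjusted p of Ankrd1 0.036) and with offsets of 16 (0.030) and 64 (0.028). Without a filter the adjusted p was 0.084 for Ankrd23, 0.090 for Tnfrsf12a and 0.15 for Rcan1, and the cause was not tested. No filter combined with a variance trend, chosen after seeing the data, kept all 3 calls. Ankrd23 and Tnfrsf12a passed in 15 of 16 alternatives each, Rcan1 in 7 and Ankrd1 in 6, where the adjusted p ran from 0.0031 to 0.30. These 16 include the setting chosen after seeing the data, in which Ankrd23, Tnfrsf12a and Rcan1 passed and Ankrd1 did not. Fhl1 ranged from -0.097 to 0.077 with 1 heart left out and reversed only without no_Cre 2, and no other tested member changed its direction. With the replicate block the call of Rcan1 was lost (adjusted p 0.072) and those of Ankrd23 and Tnfrsf12a were kept. The same held for the mean over probe sets (adjusted p of Rcan1 0.061). The labels do not say whether replicate numbers pair the hearts. Deviations of same-numbered hearts correlated at -0.06, 0.21 and -0.19. Differently numbered hearts were not compared in this way, so these values do not decide whether the hearts were paired. Signals near the array maxima (Ankrd1, Csrp3, Fhl2) limit what differences can show.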
